A study of Mus musculus with 157 samples.

Results

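Klf2, S1pr1, Ccr7, Ccr9, Ms4a4b, Itgb7, Itm2a and Foxo1, genes that act when thymocytes mature, move through the thymus and leave it, were followed in bulk RNA-seq of sorted mouse thymocytes, whole thymus and thymic tumours. The members are the rows of both deposited gene tables whose mouse Ensembl identifier maps to these symbols, 8 of 50686 genes per table. The mice were labelled Cdc20(D/AAA) (here D/AAA), the aneuploid genotype, or Cdc20(+/D) (here +/D), their controls, so that all groups but one carried a D allele of Cdc20, the activator of the anaphase-promoting complex. The AAA form escapes inhibition by the spindle checkpoint. The earlier run held RERT2 mice. From D/AAA mice came 5 libraries of early tumour sorted as double positive (DP) cells, 7 of unsorted early tumour and sorted cells of the double negative stages (9 libraries of DN1, 1 of DN2, 5 of DN3, 6 of DN4) and of DP (11 libraries). From +/D mice came 6 libraries of DN1, 8 each of DN2, DN3 and DN4, and 7 of DP. The later run held tumours and thymus. MYCChr6 tumours carried D/AAA with the driver LCK (14 libraries), RERT2 (3) or CD4 (2), or +/D with LCK (4). RERT2 D/AAA tumours without MYCChr6 numbered 22, with 10 more labelled p53(+/D), and 1 tumour labelled p53(-/-) had no Cdc20 or driver label. Non-tumoral thymus was from RERT2 mice of the D/AAA (9 libraries, and 3 with MYCChr6) and +/D genotypes (6, and 2 with MYCChr6). The tumours of the later run carry no sorting label, and MYCChr6 is an allele name that the labels do not explain. RERT2, LCK and CD4 are the drivers as labelled, and the labels used here do not say in which cells or from what age each acts, nor whether libraries of a group came from separate animals. P-values therefore measure the spread between these libraries, which may be technical. In the earlier run the label numbers pass through the stages in a repeated order, but nothing says that fractions came from 1 thymus, so the stages were tested as unpaired. No single positive (mature) thymocytes were sorted.

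A thymocyte enters the double negative pool, rearranges its T cell receptor, becomes double positive in the cortex and, once positively selected, moves to the medulla as a single positive cell and leaves. Foxo1 is a transcription factor, held out of the nucleus by PI3K and AKT signalling, that promotes Klf2 in T cells. Klf2 in turn promotes S1pr1, the sphingosine-1-phosphate receptor that draws mature thymocytes out into blood and lymph. Ccr7, the receptor for CCL19 and CCL21, guides selected cells to the medulla, and Ccr9, the receptor for the thymic chemokine CCL25, is a known mark of double positive cells. Itgb7 is the integrin chain that pairs with alpha 4 or alpha E, Ms4a4b is a membrane protein of mature T cells, and Itm2a is a membrane protein induced at positive selection.

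Promoter sequence is shown for Klf2, Ms4a4b and Itgb7, which shared a course over the sorted stages. RefSeq promoters on GRCm38.p6 were matched for 6 of the 8 genes, and the 200 bases that end 51 bases before the annotated start were searched on both strands. Capitals mark CACCC, the core bound by KLF factors, on either strand (GGGTG on the strand printed), and in Klf2 a MEF2-type motif (CTA, then 4 bases that are each A or T, then TAG), which was picked after the sequence was read.
Klf2, chr8:72318812-72319011, + strand: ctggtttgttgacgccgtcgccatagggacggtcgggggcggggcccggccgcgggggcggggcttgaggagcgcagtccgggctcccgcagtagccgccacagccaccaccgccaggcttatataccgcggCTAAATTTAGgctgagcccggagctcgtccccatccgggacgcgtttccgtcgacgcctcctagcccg
Ms4a4b, chr19:11443308-11443507, + strand: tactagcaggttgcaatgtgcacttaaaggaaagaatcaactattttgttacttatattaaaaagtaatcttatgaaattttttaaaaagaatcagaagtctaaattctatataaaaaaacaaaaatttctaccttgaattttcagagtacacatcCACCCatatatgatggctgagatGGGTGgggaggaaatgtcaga
Itgb7, chr15:102231986-102232185, - strand: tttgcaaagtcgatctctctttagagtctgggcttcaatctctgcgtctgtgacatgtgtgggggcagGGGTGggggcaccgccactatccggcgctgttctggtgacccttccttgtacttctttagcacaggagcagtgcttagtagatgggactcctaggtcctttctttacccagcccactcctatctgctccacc
CACCC was in 4 of the 6 windows (Ccr9, Ms4a4b, Itgb7 and Itm2a) and in 44.4% of 32851 promoter windows of the same length. GTAAACA, the FOXO core, was in 0 of the 6 and in 2.58% of all, and the MEF2-type motif was in Klf2 and in 0.368% of all (121 windows). The motifs do not overlap each other in the windows shown. A match is a run of letters, not a shown binding site.

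In GENCODE M21 on GRCm38, Klf2 lies at chr8:72319033-72321656, S1pr1 at chr3:115710433-115715072, Ccr7 at chr11:99144196-99155077, Ccr9 at chr9:123678439-123784330, Ms4a4b at chr19:11443553-11467055, Itgb7 at chr15:102215995-102231944, Itm2a at chrX:107397099-107403376 and Foxo1 at chr3:52268336-52353221. Exons of Ccr9 share 1932 bases with AC165425.1 and 22 bases with Slc6a20a on the opposite strand and 269 bases with Gm17200 on its own, and Foxo1 shares 674 bases with Gm20402 on the opposite strand. Whether counting used strand is not given in the sources used here, so the levels of these 2 genes are less certain. Total counts per library were 21199 to 11595463 in the earlier run (median 6972708) and 1708619 to 8009572 in the later run (median 5103323). The shallowest library, D/AAA DN1 replicate 8, was far below the next (2701382). Levels are given as CPM, counts scaled to the TMM-adjusted total of each library within a run. Tests are edgeR quasi-likelihood tests over all genes kept, with Benjamini-Hochberg adjustment and a threshold of 0.05.

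The sorting labels matched their defining markers at DN2, DN3 and DP. Summed double positive markers were 14969 to 22279 CPM in +/D DP libraries. The DN1 gate held other cells as well. In +/D DN1 libraries 13 markers of NKT, NK and innate cytotoxic cells summed to 7198 to 8401 CPM, 10 B cell markers to 6434 to 10279.8 CPM, 9 dendritic markers to 5896 to 16973 CPM, with no marker at 0 throughout, and 8 markers of DN1 and DN2 progenitors to 357 to 622 CPM. DN1 levels below are those of this mixture. In bulk libraries fewer cells of a type and less RNA per cell cannot be told apart.

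Through the control stages, 7 of the 8 genes were high at DN1, low at DN2 and DN3 and higher again at DN4, and 6 of those 7 were lower at DP, whereas Ccr9 was highest at DP. All 8 genes differed between the +/D stages (F-test over DN1 to DP), where 72.6% of genes tested did. From DN1 to DN2, 7 of 8 fell and none rose, against 48.5% of all genes called, 23.9% of them lower. At DN3 against DN2, 4 fell (4.35% called, 3.14% lower). At DN4 against DN3, 7 rose (15% called, 7.47% higher and 7.53% lower). At DP against DN4 all 8 were called, 6 lower and 2 higher, where 49.5% of genes were called (25% lower and 24.5% higher). Neighbouring steps share the libraries of a stage.

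**Figure D1:**
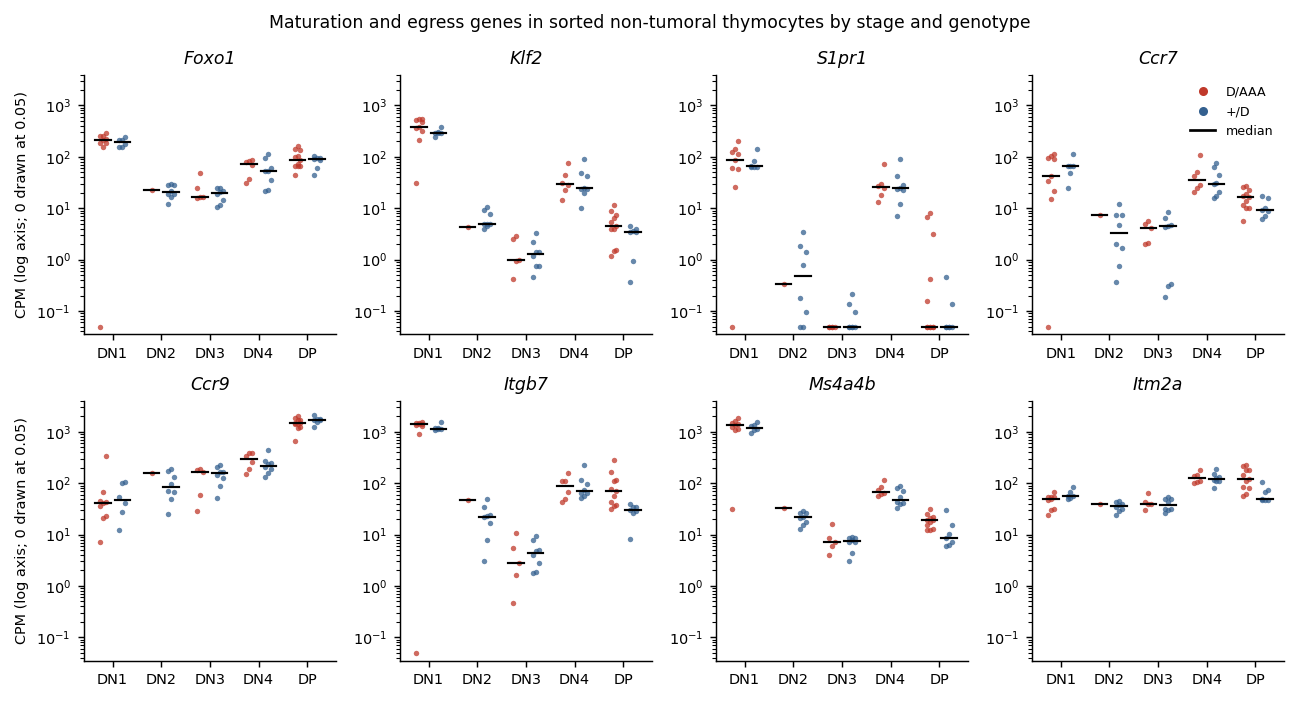
CPM (log axis, 0 drawn at 0.05) of the 8 genes in each sorted library from DN1 to DP, D/AAA in red left of +/D in blue, with a bar at each group's median. Klf2, S1pr1, Itgb7 and Ms4a4b are high at DN1, lowest at DN3 or DP and intermediate at DN4, and Ccr9 is highest at DP, in both genotypes.

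The 2 transcription factors followed different courses after DN3. Klf2 in +/D cells, as lowest, median and highest CPM, was 248, 291 and 385 at DN1, 3.90, 5.03 and 10.4 at DN2, 0.454, 1.28 and 3.36 at DN3, 10.3, 24.3 and 91.1 at DN4, then 0.362, 3.47 and 4.57 at DP. No 2 neighbouring stages overlapped. The 8 DN4 libraries spread widely, with 10.3, 19.4, 23.2, 24.2, 24.3, 41.9, 48.7 and 91.1 CPM. Klf2 fell at DN2 (log2 fold change -5.56 ± 0.41, adjusted p = 3.88e-14), fell further at DN3 (-2.12 ± 0.40, adjusted p = 0.000676), rose at DN4 (4.54 ± 0.41, adjusted p = 1.1e-10) and fell at DP (-3.47 ± 0.40, adjusted p = 3.08e-09). Foxo1 in +/D cells was 153, 193 and 245 CPM at DN1, 12.1, 20.7 and 30.3 at DN2, 10.3, 20.1 and 25.3 at DN3, 21.6, 52.2 and 115 at DN4, then 43.8, 92.8 and 105 at DP. It fell at DN2 (-3.13 ± 0.29, adjusted p = 1e-11), did not pass the test at DN3 (-0.23 ± 0.26, adjusted p = 0.817) and rose at DN4 (1.56 ± 0.27, adjusted p = 4.24e-05). At DP, where Klf2 fell, Foxo1 rose, near the threshold and with overlapping ranges (0.63 ± 0.27, adjusted p = 0.0483), and the call was lost with RLE scaling (adjusted p = 0.0618), DESeq2 (0.0565), no count filter (0.145) or 1 fit of the whole run (0.198). Per kilobase of exon, mean Klf2 was 163 CPM at DN1, 0.782 at DN3, 19.2 at DN4 and 1.58 at DP, and mean Foxo1 was 22.2, 2.13, 6.599 and 9.52. On this scale Klf2 was above Foxo1 at DN1 and DN4 and below it at DN3 and DP. The length was that of all annotated exons merged, 1847 bases for Klf2 and 8665 for Foxo1, and the order may depend on it.

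S1pr1, the egress receptor, was close to absent at DN3 and DP and present at DN4. In +/D cells it was 62.3, 65.8 and 140.1 CPM at DN1, 0, 0.480 and 3.44 at DN2, 0, 0 and 0.216 at DN3, 7.16, 24.4 and 90.02 at DN4, then 0, 0 and 0.466 at DP (lowest, median, highest). In counts, the 6 DN1 libraries held 3476, the 8 DN2 libraries 60, the 8 DN3 libraries 4, the 8 DN4 libraries 2168 and the 7 DP libraries 5, with 5 DN3 and 5 DP libraries at 0. S1pr1 fell at DN2 (log2 fold change -6.33 ± 0.66, adjusted p = 3.26e-10) and DN3 (-3.84 ± 0.89, adjusted p = 0.00678), rose at DN4 (adjusted p = 3.13e-10) and fell at DP (adjusted p = 2.91e-10). The sizes of the last 2 steps rest on 4 and 5 counts and depend on the prior count of the fit. D/AAA cells showed the same order, with counts of 0 in all 5 DN3 libraries, a level of up to 0.384 to 0.692 CPM being allowed by 3 counts per library, and 1186 counts in the 6 DN4 libraries.

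The chemokine receptors Ccr7 and Ccr9 ran in opposite directions at DP. Ccr7 in +/D cells was 24.6, 66.9 and 113 CPM at DN1, 0.360, 3.34 and 12.01 at DN2, 0.187, 4.45 and 8.41 at DN3, 15.6, 30.3 and 77.6 at DN4, then 6.12, 9.09 and 17.6 at DP. It fell at DN2 (log2 fold change -3.83 ± 0.63, adjusted p = 3.42e-06), rose at DN4 (3.28 ± 0.59, adjusted p = 0.000124) and fell at DP (-1.72 ± 0.58, adjusted p = 0.0138), and did not pass the test at DN3 (-0.29 ± 0.57, adjusted p = 0.919). Ccr9 was 12.3, 47.4 and 103 CPM at DN1, 25.5, 82.9 and 190.2 at DN2, 52.4, 155 and 223 at DN3, 132, 219.95 and 439 at DN4, then 1238, 1713 and 2129.8 at DP. Its median was higher at each stage than at the one before, but neighbouring ranges overlapped up to DN4. Of the 4 steps, DP against DN4 passed the test (2.96 ± 0.38, adjusted p = 5.85e-08), with no overlap, and the others did not (0.84 ± 0.39 at DN2, 0.56 ± 0.35 at DN3 and 0.61 ± 0.35 at DN4, adjusted p = 0.0754, 0.531 and 0.279). Per kilobase, mean Ccr9 was 166 CPM at DP, the highest of the 8 genes there, and 5.47 at DN1, the lowest of the 8. All annotated exons of Ccr9 merged span 10260 bases, which may exceed the expressed transcript, so its rank is uncertain.

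Itgb7 and Ms4a4b shared the course of Klf2, and Itm2a peaked at DN4. Itgb7 in +/D cells was 1094, 1153 and 1567 CPM at DN1, 3.06, 22.3 and 48.7 at DN2, 1.82, 4.33 and 9.29 at DN3, 51.8, 68.99 and 229.8 at DN4, then 8.16, 29.6 and 40.0 at DP. Its log2 fold changes at DN2, DN3, DN4 and DP, each against the stage before, were -5.77 ± 0.45, -2.26 ± 0.40, 4.29 ± 0.43 and -1.61 ± 0.39 (adjusted p = 5.64e-13, 0.000417, 2.69e-09 and 0.000821). The DN4 range lay between those of DN1 and DP without touching either. Ms4a4b was 961, 1208 and 1546 CPM at DN1, 12.96, 21.6 and 28.5 at DN2, 3.02, 7.60 and 9.11 at DN3, 33.4, 48.0 and 87.4 at DN4, then 6.12, 8.74 and 29.5 at DP. Its fold changes were -5.85 ± 0.31, -1.58 ± 0.27, 2.93 ± 0.27 and -2.14 ± 0.28 (adjusted p = 5.94e-18, 0.000180, 3.3e-10 and 4.43e-08), and no neighbouring stages overlapped. Itm2a varied least, with 48.5, 55.6 and 84.0 CPM at DN1, 23.9, 35.5 and 44.0 at DN2, 26.6, 37.1 and 54.9 at DN3, 82.1, 122 and 189.8 at DN4, then 46.2, 49.3 and 105 at DP. It fell at DN2 (-0.79 ± 0.20, adjusted p = 0.000937), rose at DN4 (1.63 ± 0.19, adjusted p = 2e-08) and fell at DP (-0.93 ± 0.19, adjusted p = 8.88e-05). Its DN4 libraries were all above the DN3 libraries, and DP overlapped DN4.

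**Figure D2:**
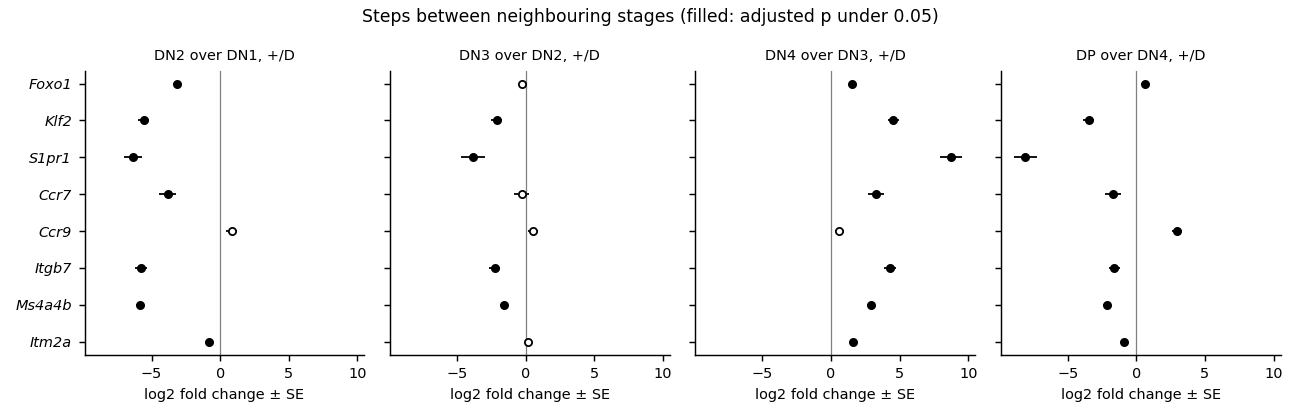
Log2 fold change with SE of each gene at the 4 steps between neighbouring +/D stages, filled where adjusted p was under 0.05. The points of Klf2, S1pr1, Ms4a4b and Itgb7 lie below 0 at DN2, DN3 and DP and above 0 at DN4, and Ccr9 is filled at DP alone.

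Markers of other cells moved at these steps as well. At DN1 the sums of NKT and NK markers (7198 to 8401 CPM) and of B cell markers were far above those at DN2, where NKT and NK markers summed to 252 to 599 CPM. Their part in the fall from DN1 was not tested. At DN4, 2 of 8 +/D libraries held 5498 and 3965 CPM of dendritic markers (replicates 1 and 7), while the other 6 held 83.4 to 313 CPM and DN3 libraries 41.5 to 77.8 CPM. Clec9a and Siglech were at 0 in all +/D DN4 libraries, and Itgax and Clec9a in all +/D DN3 libraries. Replicates 1 and 7 also had the most Klf2 (91.1 and 48.7 CPM), S1pr1 (90.02 and 42.1) and Ccr7 (77.6 and 62.5). Without them the same count of 7 genes rose at DN4, while the fall of Ccr7 at DP missed the threshold (log2 fold change -1.22 ± 0.59, adjusted p = 0.0887) and 7 of 8 genes were called there. NKT and NK markers summed to 295 to 522 CPM at DN4, 135 to 352 CPM at DN3 and 21.4 to 44.3 CPM at DP. Red cell markers summed to 118 to 3179.9 CPM at DN4 and 0.139 to 5.44 CPM at DN3, and the part of these cells was not tested. The NKT and NK sums at DP lay below those at DN4 without overlap. At that step 6 of the 8 genes fell and 25% of all genes were lower, and the part of these cells was not tested.

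Lists of related genes, with the 8 genes left out, moved as follows (the median log2 fold change of all genes tested was 0.00, 0.01, 0.01 and 0.01 at the 4 steps, in order). Among genes of sphingosine-1-phosphate signalling and egress, 2 rose and 11 fell of 20 tested (median -0.82) at DN2, and 3 rose and 3 fell of 20 tested (median 0.12) at DN4. Cd69, which holds S1pr1 off the surface, fell at DN2 (-2.54 ± 0.30), rose at DN4 (1.18 ± 0.28) and rose again at DP (1.26 ± 0.28), where 8 rose and 0 fell of 20 tested (median 0.48). Among FOXO and KLF genes and FOXO targets, 1 rose and 4 fell of 19 tested (median 0.05) at DN4 and 13 rose and 1 fell of 19 tested (median 0.81) at DP. Il7r, the IL-7 receptor chain and a FOXO1 target, fell at all 4 steps (-2.79 ± 0.19, -0.64 ± 0.18, -1.39 ± 0.18 and -3.17 ± 0.23), and Pik3ip1, an inhibitor of PI3K, fell at DN4 (-1.94 ± 0.20) and rose at DP (2.53 ± 0.21).

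Of other chemokine receptors, 1 rose and 13 fell of 14 tested (median -5.23) at DN2, 7 rose and 0 fell of 14 tested (median 1.89) at DN4 and 1 rose and 6 fell of 14 tested (median -0.63) at DP. Cxcr6 and Cxcr3, receptors of effector and innate T cells, fell at DN2 (-9.52 ± 0.66 and -8.63 ± 0.70), and Cxcr6 rose at DN4 (3.53 ± 0.57). Among positive selection genes, 1 rose and 15 fell of 19 tested (median -2.46) at DN2, 7 rose and 2 fell of 19 tested (median 0.33) at DN3, 14 rose and 2 fell of 19 tested (median 1.22) at DN4 and 8 rose and 5 fell of 19 tested (median 0.33) at DP. Cd5, a brake on T cell receptor signalling, and Cd2, an adhesion receptor of T cells, rose at DN4 (2.15 ± 0.21 and 3.21 ± 0.24), and Cd5 and Themis rose at DP (1.93 ± 0.21 and 2.33 ± 0.26). Of mature thymocyte surface and quiescence genes, 3 rose and 19 fell of 24 tested (median -2.70) at DN2, 1 rose and 12 fell of 24 tested (median -0.69) at DN3, 11 rose and 5 fell of 24 tested (median 0.46) at DN4 and 9 rose and 11 fell of 24 tested (median -0.86) at DP. Cd52 fell at DN2 (-6.38 ± 0.42) and DN3 (-2.03 ± 0.36) and rose at DN4 (3.99 ± 0.38), and H2-Q7, a class Ib MHC gene, fell at DP (-4.07 ± 0.49). Of integrin partners, 2 rose and 10 fell of 13 tested (median -1.94) at DN2, and Itgae, the alpha chain that pairs with Itgb7, fell at DN2 (-7.59 ± 0.64), rose at DN4 (1.87 ± 0.52) and fell at DP (-2.75 ± 0.59). Of chemokine and adhesion ligands 0 rose and 4 fell of 5 tested (median -3.16) at DN2, and of close relatives of the 8 genes 2 rose and 8 fell of 10 tested (median -1.98).

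Between D/AAA and +/D cells of the same stage, edgeR called 0 of the 8 genes at DN1 and DN4 and 0 of the 7 tested at DN3 and DP, where S1pr1 was below the count filter. Over all genes it called 0%, 0%, 0.0081% and 0.00803% at DN1, DN3, DN4 and DP (353, 549, 798 and 1325 genes had an unadjusted p under 0.05, and DESeq2 called 8, 13, 26 and 68 genes). The 8 lists of related genes described above also had 0 genes called at each stage. DN2 had 1 D/AAA library and was not tested. That library held 4.29 CPM of Klf2, 0.330 of S1pr1, 7.26 of Ccr7 and 22.8 of Foxo1, inside the +/D ranges. At DN1 the fold changes lay between -0.43 ± 0.58 (Ccr9) and 0.41 ± 0.26 (Klf2), all with adjusted p of 1. At DN3 they lay between -0.23 ± 0.41 (Ccr9) and 0.45 ± 0.32 (Foxo1), and Foxo1 was at 0.00078 ± 0.27 without D/AAA replicate 5.

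DN4, the stage where S1pr1 and Klf2 rose, had overlapping groups. Klf2 was 14.8, 22.8, 28.4, 31.1, 43.5 and 77.0 CPM in the 6 D/AAA libraries, against 10.3 to 91.1 CPM in the 8 +/D libraries. S1pr1 was 13.2, 18.5, 24.3, 26.8, 29.3 and 73.0 CPM in D/AAA libraries, against 7.16 to 90.02 CPM in +/D libraries. Ms4a4b had the largest difference of the 8, with 55.8, 68.7 and 113 CPM in D/AAA and 33.4, 48.0 and 87.4 CPM in +/D libraries (log2 fold change 0.50 ± 0.24, adjusted p = 0.763), and all 6 D/AAA libraries lay above the +/D median. Red cell markers summed to 1824 to 37079.5 CPM in D/AAA and 118 to 3179.9 CPM in +/D libraries, and their part in these values was not tested.

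At DP, Itgb7 and Itm2a were the 2 genes with the lowest adjusted p. Itgb7 was 30.9, 69.05 and 277 CPM in 11 D/AAA libraries and 8.16, 29.6 and 40.0 CPM in 7 +/D libraries, with 8 of 11 above the highest +/D library (log2 fold change 1.73 ± 0.41, adjusted p = 0.209). Itm2a was 55.3, 119 and 224 CPM in D/AAA and 46.2, 49.3 and 105 CPM in +/D libraries, with 7 of 11 above the highest +/D library (1.12 ± 0.28, adjusted p = 0.209). All 11 D/AAA libraries lay above the +/D median for both genes. DESeq2 called both (adjusted p = 0.00336 for Itgb7 and 0.0141 for Itm2a), and 1 fit of the whole run called Itm2a (0.0405). Every +/D library carries a lower label number than every D/AAA library, so genotype and label order cannot be told apart, also within parts of the run. Among the libraries of the first part of the run 0 of the 7 genes tested were called. The fold changes were 2.21 for Itgb7 (adjusted p = 0.189) and 0.69 for Itm2a (0.395). That part keeps D/AAA replicates 1 to 5, of which 1 and 5 had the most Itgb7 of the DP cells (166 and 277 CPM).

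Itgb7 lies on chromosome 15. The chromosome 15 score of a DP library was the median log2 difference of other genes of that chromosome from +/D DP less that of other autosomes. A relation of Itgb7 to the score over all DP libraries was not tested. D/AAA DP replicates 1 and 5 had scores of 0.803 and 0.558 and Itgb7 levels of 166 and 277 CPM, the 2 highest. The other 9 had scores of -0.0273 to 0.218 and the +/D libraries -0.0399 to 0.0359. Without replicates 1 and 5 Itgb7 was 1.19 ± 0.31, adjusted p = 0.165 and Itm2a, on the X chromosome, 1.12 ± 0.29, adjusted p = 0.165.

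The other genes tested at DP had smaller differences. Klf2 was 1.17, 4.56 and 11.3 CPM in D/AAA and 0.362, 3.47 and 4.57 CPM in +/D DP libraries (0.84 ± 0.55, adjusted p = 0.610), and Ms4a4b was 12.1, 19.1 and 31.9 CPM in D/AAA and 6.12, 8.74 and 29.5 CPM in +/D libraries (0.69 ± 0.32, adjusted p = 0.454). Ccr7 was 5.62, 16.7 and 27.6 CPM in D/AAA and 6.12, 9.09 and 17.6 CPM in +/D libraries (0.67 ± 0.32, adjusted p = 0.459). S1pr1 was below the count filter. It was above 1 CPM in 3 of 11 D/AAA libraries (3.13, 6.81 and 8.21 CPM in replicates 6, 9 and 10) and held 97 counts over the 11, against 5 counts over the 7 +/D libraries. NKT and NK markers summed to 32.1 to 775 CPM in D/AAA and 21.4 to 44.3 CPM in +/D libraries, with 57.4, 111 and 72.9 CPM in those 3. The test of a genotype difference that varies over DN1, DN3, DN4 and DP called 0 of the 8 genes with edgeR (22 genes in all, 0.134%, and 1369 at unadjusted p under 0.05), with Itm2a lowest at adjusted p = 0.106, and DESeq2 called Itm2a alone of the 8 (adjusted p = 0.0306).

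Early tumours sorted as DP had high Ccr9 and little Klf2 and S1pr1, as DP cells did. Both sets of early tumours were compared with the same 11 D/AAA DP libraries. Against D/AAA DP cells, edgeR called 0 of the 7 genes tested and 0 genes in all, or 0% (2719 at unadjusted p under 0.05, and DESeq2 called 855 in all), and 0 genes of any list. Ccr9 was 1645, 668, 706, 627 and 1079 CPM in tumour replicates 1 to 5, against 655, 1462 and 2003 CPM in 11 D/AAA DP libraries (log2 fold change -0.65 ± 0.27, adjusted p = 0.171). Replicates 2 to 4 lay at the low end of the DP range, replicate 4 below it. Without tumour replicate 1 the difference was -0.93 ± 0.26, adjusted p = 0.0318. Itgb7 was 32.2, 114, 161, 188 and 294 CPM in the same order, against 30.9, 69.05 and 277 CPM (0.75 ± 0.48, adjusted p = 0.357). Tumour replicate 1, the lowest, had a chromosome 15 score of 0.0464, and replicates 2 to 5 had 0.611, 1.04, 0.901 and 0.860. Without the 2 D/AAA DP libraries with high scores, Itgb7 was 1.304 ± 0.39, adjusted p = 0.0349 and Ccr9 -0.75 ± 0.24, adjusted p = 0.0408. That fit called 1723 genes in all, against 0. The 2 libraries also had the highest Itgb7 of the DP cells (166 and 277 CPM), so leaving them out by itself raises the Itgb7 difference. Within the second part of the run 0 of the 7 genes tested were called, with Ccr9 at -0.78 (adjusted p = 0.0887) and Itgb7 at 1.37 (0.072). This part also lacks those 2 DP libraries, so its Itgb7 difference is raised in the same way.

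For the other genes the sorted tumours overlapped DP cells. Klf2 was 6.44, 2.67, 0.265, 4.20 and 9.72 CPM, against 1.17, 4.56 and 11.3 CPM in D/AAA DP cells (-0.14 ± 0.64, adjusted p = 0.915). S1pr1 was 1.55, 0, 0, 0.210 and 9.72 CPM, against 0, 0 and 8.21 CPM, below the count filter. Replicate 5 had the highest Klf2 and S1pr1 of the 5, and also the highest Itm2a, Ms4a4b and Itgb7, with NKT and NK markers at 479.6 CPM, against 64.8, 512, 2063 and 585 CPM in replicates 1 to 4. Ncr1 and Eomes were at 0 in all 5. Ms4a4b was 10.7, 31.5, 5.31, 32.9 and 92.0 CPM, against 12.1, 19.1 and 31.9 CPM (0.85 ± 0.43, adjusted p = 0.246, and 0.08 ± 0.40, adjusted p = 0.928 without replicate 5). Itm2a was 120.3, 101, 101, 161 and 483 CPM, against 55.3, 119 and 224 CPM (0.53 ± 0.38, adjusted p = 0.407). Ccr7 was 15.5, 14.8, 10.6, 18.9 and 17.7 CPM and Foxo1 77.2, 71.9, 35.3, 104 and 65.6 CPM, inside the D/AAA DP ranges but for 1 Foxo1 value below it.

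**Figure D3:**
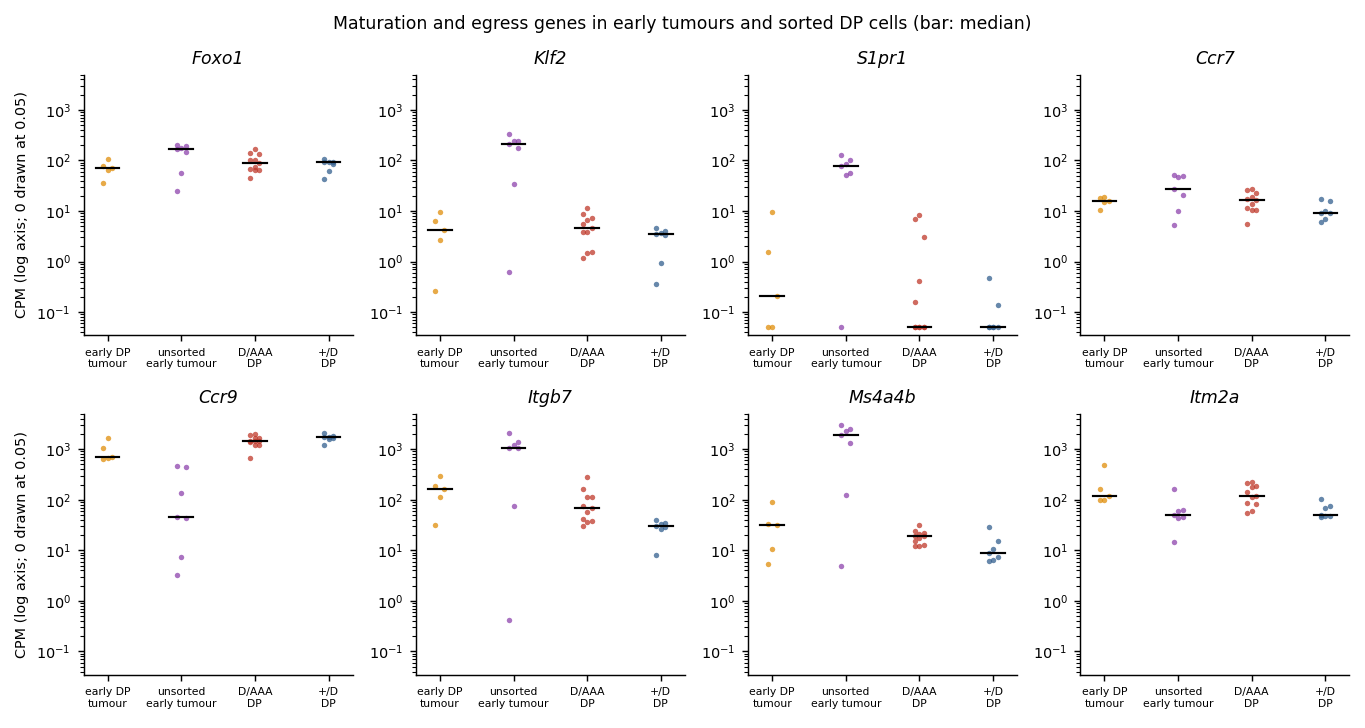
CPM (log axis, 0 drawn at the foot) of the 8 genes in early tumours sorted as DP, unsorted early tumours, D/AAA DP cells and +/D DP cells, 1 point per library with a bar at the median. The unsorted tumours spread over the widest range for Ms4a4b, Klf2, Itgb7 and S1pr1, with most of them far above the DP cells.

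Unsorted early tumours had a different profile, high in Klf2, S1pr1, Ms4a4b and Itgb7 and low in Ccr9. Against D/AAA DP cells, 6 of 8 genes were called, 4 higher and 2 lower, where 29.1% of genes were called (15.9% higher and 13.2% lower). Ms4a4b was 5.00, 1871 and 3013 CPM in the 7 tumours, against 12.1, 19.1 and 31.9 CPM in DP cells (6.41 ± 0.71, adjusted p = 3.85e-06). Klf2 was 0.625, 212 and 328 CPM, against 1.17, 4.56 and 11.3 CPM (5.12 ± 0.68, adjusted p = 2.79e-05). Itgb7 was 0.417, 1069 and 2075 CPM, against 30.9, 69.05 and 277 CPM (3.42 ± 0.76, adjusted p = 0.00239). In each of these 3 genes, tumour replicate 2 was lowest and below the DP range. S1pr1 was 0, 76.1 and 128 CPM, against 0, 0 and 8.21 CPM (5.42 ± 1.10, adjusted p = 0.00116). Ccr9 was 3.27, 46.1 and 472 CPM, against 655, 1462 and 2003 CPM, with no overlap (-3.16 ± 0.74, adjusted p = 0.00348). Itm2a was lower (-1.07 ± 0.38, adjusted p = 0.0371, and -1.09 ± 0.42, adjusted p = 0.0546 without the 2 DP libraries with high chromosome 15 scores), and Ccr7 and Foxo1 did not pass the test (0.88 ± 0.40 and 0.54 ± 0.33, adjusted p = 0.102 and 0.240).

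NKT and NK markers were also high in 5 of the 7 unsorted tumours. Their 13 genes summed to 11852, 9979, 5039, 9869 and 10739 CPM in unsorted tumour replicates 1, 4, 5, 6 and 7, to 398 and 531 CPM in replicates 2 and 3, to 64.8 to 2063 CPM in sorted early tumours and to 32.1 to 775 CPM in D/AAA DP cells. In replicates 2 and 3 Ms4a4b was 5.00 and 126 CPM, Klf2 0.625 and 34.1 CPM, Itgb7 0.417 and 75.8 CPM, S1pr1 0 and 56.5 CPM and Ccr9 133 and 452 CPM. Without the 5 high libraries, 2 of 8 genes were called, and 1357 genes in all, against 3468 with no tumour left out. Calls were thus lost over all genes as well. That fit, chosen after seeing the data, kept replicates 2 and 3 alone of the tumours. The 5 libraries left out also had the most Ms4a4b and Itgb7 of the unsorted tumours. Leaving them out by itself lowers these differences, so the lost calls add no support. Klf2 (1.75 ± 0.84, adjusted p = 0.181) and S1pr1 (4.05 ± 1.58, adjusted p = 0.110) were not called. Itgb7 then lay at -1.302 ± 1.11, adjusted p = 0.469. Without replicates 2 and 3, 7 of 8 genes were called, Foxo1 among them (0.81 ± 0.25, adjusted p = 0.0124), and 5112 genes in all. In the 5 tumours with high sums Ms4a4b was 1871, 2537, 1300.3, 3013 and 2268 CPM, against 961 to 1546 CPM in +/D DN1 libraries, where the sums were 7198 to 8401 CPM. The part of NKT and NK cells in these values was not tested.

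All 9 chemokine receptors tested were called in unsorted tumours. Among them 7 rose and 2 fell of 9 tested (median 6.002), with Cxcr6 at 7.64 ± 1.06 and Cxcr3 at 6.99 ± 1.18. Of mature thymocyte genes, 15 rose and 2 fell of 23 tested (median 2.15), with Ly6c2 at 8.32 ± 1.39. The positive selection list went the other way, as 3 rose and 8 fell of 18 tested (median -0.96), with Themis, which tunes receptor signalling at selection, at -3.23 ± 0.94. Il7r rose (6.18 ± 0.67), and Itgae rose (8.36 ± 0.85). Of sphingosine-1-phosphate genes, 3 rose and 0 fell of 16 tested (median 0.09), and of FOXO and KLF genes and targets, 4 rose and 5 fell of 19 tested (median -0.24). The median over all genes was -0.01. Members of these lists, such as Cxcr6 and Il7r, are also expressed by innate lymphocytes.

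**Figure D4:**
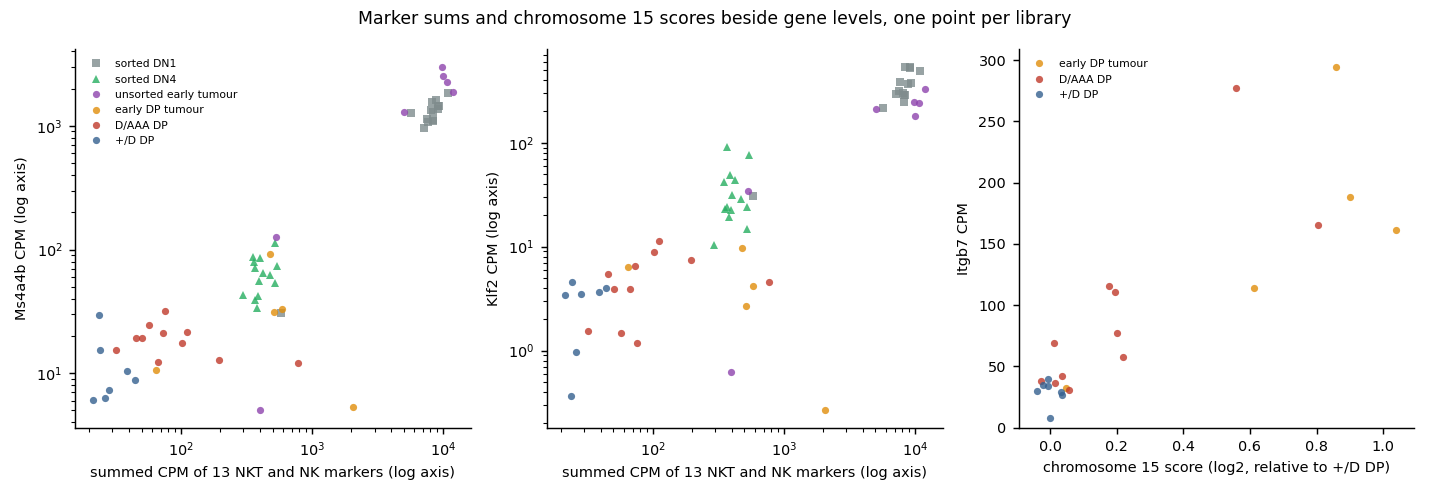
CPM of Ms4a4b and Klf2 against the summed CPM of 13 NKT and NK markers (log axes), and CPM of Itgb7 against the chromosome 15 score, 1 point per library with groups by colour. Across groups, libraries with the largest marker sums also have the highest Ms4a4b and Klf2. Among early DP tumours the library with the largest sum has the least of both genes. The third panel shows early DP tumours, D/AAA DP and +/D DP cells alone. There the 6 libraries with a score above 0.3 have 114 to 294 CPM of Itgb7 and the others at most 116 CPM.

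In whole thymus, edgeR called 0 of the 8 genes between D/AAA and +/D mice and 0 genes in all, or 0% (907 at unadjusted p under 0.05, and DESeq2 called 49), and 0 genes of any list. Ccr9 was 0.495, 459.6 and 686 CPM in 9 D/AAA and 675, 711 and 987 CPM in 6 +/D thymi, with 8 of 9 D/AAA thymi below the lowest +/D one (-0.75 ± 0.65, adjusted p = 0.785). Itgb7 was 3.71, 74.4 and 119 CPM in D/AAA and 24.4, 39.5 and 44.7 CPM in +/D thymi, with 8 of 9 above the highest +/D one (0.98 ± 0.40, adjusted p = 0.542). D/AAA replicate 7 was the lowest of the D/AAA thymi in both genes (0.495 and 3.71 CPM), had S1pr1 at 0 and had a chromosome 15 score of 0.586. S1pr1 was 0, 66.7 and 138 CPM in D/AAA and 42.0, 54.9 and 65.6 CPM in +/D thymi, and Ccr7 was 7.68, 154 and 337 CPM in D/AAA and 102, 107 and 163 CPM in +/D thymi. Their D/AAA ranges spanned the +/D ranges. NKT and NK markers summed to 178 to 500.00 CPM in D/AAA and 96.3 to 179 CPM in +/D thymi, and chromosome 15 scores were 0.00813 to 0.586 in D/AAA and -0.0534 to 0.0554 in +/D thymi, with 4 of 9 D/AAA thymi above 0.3. Their part in these values was not tested.

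RERT2 D/AAA tumours were lower than D/AAA thymus in 7 of the 8 genes, Ms4a4b, Ccr7 and S1pr1 most of all. edgeR called 34.9% of genes in this comparison, 16.8% lower, and none of the 8 genes was called higher. Ms4a4b was 0, 1.29 and 5.01 CPM in 22 tumours, against 4.46, 41.9 and 94.4 CPM in 9 thymi (-5.12 ± 0.47, adjusted p = 1.09e-08), and 21 of 22 tumours lay below the lowest thymus. Ccr7 was 0, 5.54 and 22.9 CPM in tumours, against 7.68, 154 and 337 CPM in thymi (-4.65 ± 0.49, adjusted p = 8.94e-08), with 22 of 22 below the thymus median and 15 below the lowest thymus. S1pr1 was 0, 1.63 and 33.5 CPM in tumours, against 0, 66.7 and 138 CPM in thymi (-4.31 ± 0.70, adjusted p = 3.12e-05), also with 22 of 22 below the median. Its lowest thymus, replicate 7, held 0 counts.

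The other calls were smaller and the groups overlapped. Klf2 was 0, 0.744 and 5.54 CPM in tumours, against 0.991, 3.73 and 10.6 CPM in thymi (-1.76 ± 0.65, adjusted p = 0.0333), and Foxo1 was 5.28, 16.4 and 38.0 CPM, against 10.4, 26.1 and 55.9 CPM (-0.80 ± 0.27, adjusted p = 0.0200), each with 20 of 22 tumours below the thymus median. Itgb7 was 1.67, 35.3 and 76.4 CPM in tumours, against 3.71, 74.4 and 119 CPM in thymi (-1.05 ± 0.38, adjusted p = 0.0315), and all 22 tumours had a chromosome 15 score above 0.3, from 0.331 to 0.851. Itm2a was 3.70, 36.7 and 286 CPM in tumours, against 35.2, 144 and 291 CPM in thymi (-1.38 ± 0.44, adjusted p = 0.0153). Klf2 and Itgb7 missed the threshold with no count filter (adjusted p = 0.0623 and 0.0826), Itgb7 in 1 fit of the whole run (0.0738), and Klf2 without the 4 D/AAA thymi with high chromosome 15 scores (-1.81 ± 0.85, adjusted p = 0.0929).

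Ccr9 was 3.97, 169.97 and 478 CPM in tumours, against 0.495, 459.6 and 686 CPM in thymi, with 21 of 22 tumours below the thymus median, and narrowly missed the threshold (-1.25 ± 0.52, adjusted p = 0.0595). It passed with RLE scaling (adjusted p = 0.0488) and with DESeq2 (0.0398). Without D/AAA thymus replicate 7 it was -1.41 ± 0.43 (adjusted p = 0.00981), and without the 4 thymi with high chromosome 15 scores -1.70 ± 0.51 (adjusted p = 0.00947). Both fits, chosen after seeing the data, leave out replicate 7, the thymus with the least Ccr9. That by itself raises the thymus level, so they add no support. They called 4549 and 4758 genes in all, against 4064. Marker sums of other cells had lower medians in tumours. As lowest, median and highest, NKT and NK markers summed to 43.1, 123 and 621 CPM in tumours and 178, 246 and 500.00 CPM in thymi, and B cell markers to 18.5, 119.5 and 625.1 CPM in tumours and 143, 371 and 557 CPM in thymi. Dendritic markers summed to 55.3, 158 and 505 CPM in tumours and 42.8, 306 and 725 CPM in thymi, and double positive markers to 1464, 2151 and 3698 CPM in tumours and 1879, 3994 and 6699 CPM in thymi. Whole thymus also holds single positive cells. Their part in these falls was not tested.

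In each of the 8 lists of related genes more genes fell than rose, where 16.8% of all genes were lower and 18.1% higher and the median over all genes was 0.04. Close relatives, ligands and chemokine receptors rest on 9, 5 and 7 genes tested. Of positive selection genes, 0 rose and 12 fell of 19 tested (median -1.33), with Egr2 at -4.61 ± 0.71 and Egr1, another early response factor of receptor signalling, at -2.47 ± 0.46. Of mature thymocyte genes, 0 rose and 14 fell of 23 tested (median -1.34), with Slfn1 at -4.77 ± 0.64. Of sphingosine-1-phosphate genes, 1 rose and 8 fell of 16 tested (median -0.44), with S1pr4 at -2.91 ± 0.36 and Cd69 at -2.64 ± 0.75. Of FOXO and KLF genes and targets, 1 rose and 11 fell of 18 tested (median -0.87), with Cdkn1b, the cell cycle inhibitor p27, at -2.16 ± 0.25. Of chemokine receptors, 0 rose and 4 fell of 7 tested (median -1.10). Of ligands, 0 rose and 2 fell of 5 tested (median -0.77). Of integrins, 0 rose and 6 fell of 10 tested (median -1.01), with Itgae at -3.28 ± 0.59 and Itga4, both partners of Itgb7, at -2.32 ± 0.54. Of close relatives, 0 rose and 3 fell of 9 tested (median -0.15).

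**Figure D5:**
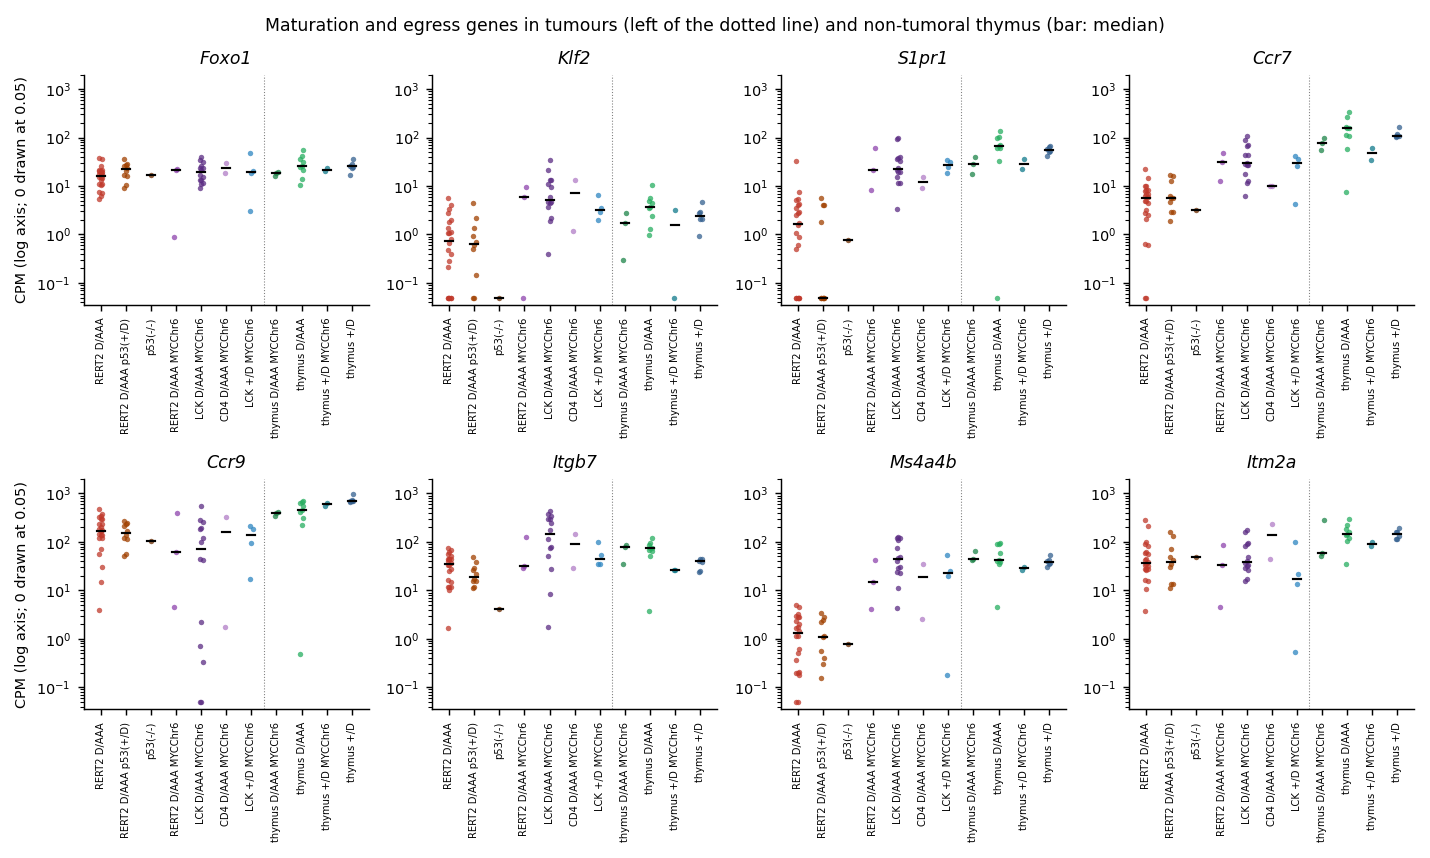
CPM (log axis, 0 drawn at the foot) of the 8 genes in each tumour and thymus library of the later run, tumour groups left of the dotted line and thymus groups right of it, with a bar at each median. Ms4a4b, Ccr7 and S1pr1 are low in RERT2 D/AAA and RERT2 D/AAA p53(+/D) tumours and spread up to thymus levels in MYCChr6 tumours.

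Between tumours labelled p53(+/D) and the other RERT2 D/AAA tumours no difference in these genes was called. edgeR called 0 of the 7 genes tested, Klf2 being below the count filter (1.29% of all genes, or 148, and 1651 at unadjusted p under 0.05), DESeq2 called 361 genes in all, and every list had 0 genes called. Ms4a4b was 0.154, 1.11 and 3.44 CPM in p53(+/D) tumours and 0, 1.29 and 5.01 CPM in the other RERT2 D/AAA tumours (-0.14 ± 0.61, adjusted p = 0.956). Ccr7 was 1.92, 5.56 and 16.7 CPM in p53(+/D) and 0, 5.54 and 22.9 CPM in the other tumours (0.29 ± 0.52, adjusted p = 0.865). Ccr9 was 50.8, 154 and 274 CPM in p53(+/D) and 3.97, 169.97 and 478 CPM in the other tumours (-0.25 ± 0.43, adjusted p = 0.863). The largest of the tested differences were S1pr1 (-1.16 ± 0.96, adjusted p = 0.638) and Itgb7 (-0.59 ± 0.36, adjusted p = 0.480). The p53(-/-) tumour, with no replicate, held 0.763 CPM of Ms4a4b, 3.24 of Ccr7, 4.19 of Itgb7 and 107 of Ccr9, and Klf2 was at 0, which allows up to 0.572 CPM. Trp53 itself was 7.55, 11.1 and 27.5 CPM (lowest, median, highest) in p53(+/D) tumours and 31.5, 172 and 267 CPM in RERT2 D/AAA tumours, without overlap.

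RERT2 D/AAA MYCChr6 tumours, set against the same 22 RERT2 D/AAA tumours, were higher in 2 of the 8 genes, where 9.23% of genes were called, 5.65% higher and 3.57% lower. Ms4a4b was 4.07, 14.9 and 42.5 CPM in MYCChr6 tumour replicates 1 to 3, against 0, 1.29 and 5.01 CPM in the 22 others (3.69 ± 0.73, adjusted p = 0.00129). Ccr7 was 12.9, 31.9 and 48.9 CPM, against 0, 5.54 and 22.9 CPM (2.38 ± 0.72, adjusted p = 0.0333). Replicates 2 and 3 lay above every RERT2 D/AAA tumour in both genes, and replicate 1 lay inside their range. S1pr1 was 8.15, 21.03 and 61.2 CPM, against 0, 1.63 and 33.5 CPM (3.09 ± 1.03, adjusted p = 0.0567), and passed in 1 fit of the whole run (3.06, adjusted p = 0.00667). Neither call held in every fit with a MYCChr6 tumour left out, each of which kept 2 of them. Without replicate 3 neither gene passed (2.58 ± 0.96, adjusted p = 0.135 for Ms4a4b and 1.90 ± 0.88, adjusted p = 0.264 for Ccr7). That fit called 669 genes in all, against 1265. Without replicate 2 Ccr7 did not pass (2.37 ± 0.85, adjusted p = 0.0958), while Ms4a4b did (3.88 ± 0.84, adjusted p = 0.00364). Both genes passed without replicate 1. B cell markers summed to 192, 1034 and 22471 CPM and dendritic markers to 64.7, 1069 and 2019 CPM in replicates 1 to 3, against 18.5 to 625.1 CPM and 55.3 to 505 CPM in RERT2 D/AAA tumours. Their part was not tested. Of mature thymocyte genes 6 rose and 0 fell of 23 tested (median 1.48), and of chemokine receptors 5 rose and 0 fell of 12 tested (median 2.63).

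Against D/AAA MYCChr6 thymus the same 3 tumours had 0 of the 8 genes called (2.17% of genes, 1.25% lower, and 2169 at unadjusted p under 0.05, while DESeq2 called 1061). Ccr7 was 12.9, 31.9 and 48.9 CPM in tumours and 76.3, 97.3 and 54.6 CPM in thymi (-1.31 ± 0.47, adjusted p = 0.192), and Ms4a4b was 4.07, 14.9 and 42.5 CPM in tumours and 43.6, 63.5 and 43.1 CPM in thymi (-1.32 ± 0.72, adjusted p = 0.367). Neither pair of ranges overlapped, and with no count filter both passed (adjusted p = 0.0129 and 0.0323). Of the lists, 2 FOXO and KLF genes fell, Pik3ip1 (-2.07 ± 0.40) and Foxo3 (-1.58 ± 0.26), and 1 mature thymocyte gene rose, Tmsb10 (2.21 ± 0.41). The test of whether the tumour to thymus difference itself varied with MYCChr6 called 0 of the 8 genes (132 genes in all, 0.898%, and 1905 at unadjusted p under 0.05). Ms4a4b was nearest, at 3.78 ± 1.12 (adjusted p = 0.0937), followed by Ccr7 at 3.33 ± 1.17 (0.179).

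LCK MYCChr6 tumours ranged widely in these genes. In 14 LCK D/AAA MYCChr6 tumours Itgb7 was 1.72, 147 and 426 CPM, Ms4a4b 4.35, 43.7 and 127 CPM, S1pr1 3.39, 22.6 and 95.7 CPM, Klf2 0.399, 5.27 and 34.5 CPM and Ccr9 0, 71.9 and 551 CPM. Against RERT2 D/AAA MYCChr6 tumours edgeR called 0 of the 8 genes and 0 genes in all, or 0% (468 at unadjusted p under 0.05, and DESeq2 called 25), with Ms4a4b at 1.54 ± 0.87 and Itgb7 at 1.57 ± 1.15 (adjusted p = 1 for both). Against 4 LCK +/D MYCChr6 tumours it again called 0 of the 8 and 0 genes in all, or 0% (653 at unadjusted p under 0.05, and DESeq2 called 19). No list had a gene called in either comparison. Itgb7 was 1.72, 147 and 426 CPM in D/AAA and 35.2, 35.8, 53.03 and 98.5 CPM in +/D tumours (1.68 ± 0.96, adjusted p = 0.970). Ms4a4b was 19.98, 25.3, 52.8 and 0.177 CPM and Ccr9 217, 188, 94.6 and 17.2 CPM in the +/D tumours, both inside the D/AAA range but for the Ms4a4b value of replicate 4. In the 2 CD4 D/AAA MYCChr6 tumours Ccr9 was 1.77 and 326 CPM, Itgb7 148 and 29.5 CPM, Ms4a4b 2.52 and 35.7 CPM and Klf2 13.1 and 1.2 CPM in replicates 1 and 2, so that the library with the higher Ccr9 had the lower Itgb7.

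Genes with the most similar course were found by Pearson correlation of log2 CPM, as a description over libraries that share their groups. Over 69 sorted libraries and 9722 genes, Klf2 was closest to Cd7 (0.956), Il2rb (0.940) and Ms4a4b (0.937), and Ms4a4b to Klrd1 (0.950), Cd7 (0.942) and Shisa5 (0.941). S1pr1 was closest to Nt5e (0.922), Ccr7 to St6gal1 (0.834), Ccr9 to Rmnd5a (0.909), Itgb7 to Pim2 (0.922) and Itm2a to Id3 (0.715). Over the 76 libraries of the later run the nearest genes were Nkg7 for Klf2 (0.700), S100a10 for S1pr1 (0.844), Clec2d for Ccr7 (0.852), Lyst for Ccr9 (0.758), Gimap3 for Ms4a4b (0.858), Ahnak for Itgb7 (0.672), Rnf114 for Itm2a (0.601) and Abca3 for Foxo1 (0.651). Among the 8 genes, S1pr1 and Ccr7 correlated at 0.771 over sorted libraries and 0.772 over the later run, Klf2 and S1pr1 at 0.902 and 0.622, S1pr1 and Ms4a4b at 0.865 and 0.834, and Klf2 and Foxo1 at 0.550 and 0.400. Klf2 and Ccr9 correlated at -0.534 and -0.200.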

How the data were processed

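RNA was measured in 157 libraries in 23 groups taken from the labels. Per the submitters' processing notes, the tools were FastQC, STAR 2.5.3a (aligner) and RSEM 1.3.0 (quantifier), on GRCm38. Each run has 1 deposited table of expected counts, RSEM estimates per gene that were all whole numbers here. The sources used here give neither strandedness nor the authors' annotation. GENCODE M21, possibly another annotation than theirs, supplied positions and symbols for 50462 of 50686 genes. No 2 libraries held identical values, and no column was left without a sample.

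The 8 genes and the lists of related genes and markers were chosen with earlier results of these data known. Every test stayed within 1 run. After filterByExpr and TMM scaling, edgeR 4.0.16 (R 4.3.3) gave robust, 2-sided quasi-likelihood tests, with Benjamini-Hochberg adjustment over all genes tested and a threshold of 0.05. Values after ± are SE of log2 fold changes. CPM used TMM-scaled totals of a run. A floor of 3 counts per library limits a gene at 0 and covers counting error only. The chromosome 15 score used genes averaging 10 CPM or more, without the 8 genes. From each list up to 4 genes with the largest fold change past the threshold and a mean of at least 5 CPM could be named. The 3 most similar protein-coding genes per member were taken by Pearson correlation of log2 CPM (prior count 2). Groups of 1 or 2 libraries were not tested, but some fits with libraries left out kept 2 libraries in a group. Some named genes are not reported here. The fits were tested on simulated data with 200 changed genes. Those data held pairs of groups and the same dispersion for every gene, a simpler setting than these libraries, and no result rests on them. Python 3.11.15, numpy 2.4.6, pandas 2.3.3 and matplotlib 3.10.9 were used.

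Alternatives were RLE scaling, DESeq2 1.42.0, no count filter, 1 fit of all libraries of a run, dropping in turn every library of a group with 5 or fewer, the later run without CT010467.1 (a gene overlapping ribosomal RNA), the first 56 or last 25 libraries of the earlier run by label number, and fits without the shallow DN1 library, the 2 D/AAA DP libraries with chromosome 15 gains or the unsorted tumour with most globin. Fits without libraries high in dendritic markers, low or high in NKT and NK markers or high in chromosome 15 score, without D/AAA thymus replicate 7 and without LCK D/AAA MYCChr6 tumour replicate 9 (the most B cell markers) were chosen after seeing the data.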

Additional observations from a re-analysis of the deposited data

Results flagged for a closer look

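A library was singled out where its gap to the nearest other library of its group, over the group's range, passed Dixon's 95% critical value. Of 111 pairs of a gene and a group of 4 to 10 libraries, 22 were singled out. A rate of 1 in 20 by chance holds only for normal, independent values. These pairs used unlogged CPM and share libraries, so no excess over chance can be read from the count. At DN4, +/D replicate 1 was highest in S1pr1, at 90.02 CPM (next 42.1), in Ccr9, at 439 CPM (next 266), and in Itgb7, at 229.8 CPM (next 115), and it also held the most dendritic markers. D/AAA DN4 replicate 3 was highest in S1pr1, at 73.0 CPM (next 29.3), and in Ccr7, at 107 CPM (next 50.04). The shallow D/AAA DN1 replicate 8 was highest in Ccr9, at 338 CPM (next 67.3), and lowest in Ms4a4b, at 30.7 CPM (next 1103), in Itgb7, at 0 CPM (next 906), and in Foxo1, at 0 CPM (next 155), and its 21199 counts leave each of these imprecise. Early DP tumour replicate 5 was highest in S1pr1, at 9.72 CPM (next 1.55), and in Itm2a, at 483 CPM (next 161).

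Single values also stood apart. Among +/D DN1 libraries these were S1pr1 in replicate 5, at 140.1 CPM (next 82.5), and Itgb7 in replicate 1, at 1567 CPM (next 1170.4). At +/D DP they were S1pr1 in replicate 6, at 0.466 CPM (next 0.136), Ms4a4b in replicate 4, at 29.5 CPM (next 15.5), and Itgb7 in replicate 2, the lowest, at 8.16 CPM (next 26.8). Foxo1 stood apart in D/AAA DN3 replicate 5, at 49.4 CPM (next 24.7), and Itm2a in unsorted early tumour replicate 3, at 165 CPM (next 61.8), the library with the most globin. In the later run, Klf2 was highest in D/AAA thymus replicate 9, at 10.6 CPM (next 5.65), and in p53(+/D) tumour replicate 10, at 4.54 CPM (next 2.17). Ccr7 was highest in +/D thymus replicate 3, at 163 CPM (next 119), and Ccr9 in +/D thymus replicate 4, at 987 CPM (next 723).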

How the results depend on the processing

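No paired analysis was possible because the labels carry no replicate numbers and do not say which stage fractions share a thymus. Of the values of the 8 genes under the settings tried other than leaving out each library in turn and those chosen after seeing the data, 638 kept direction and call, 10 were newly called, 11 lost their call and 7 reversed. The number of the 8 genes called moved as follows. At DN3 against DN2 it was 2 in 1 fit of the run. For genotype at DP it was 2 with DESeq2 and 1 in 1 fit of the run, and for the genotype by stage interaction 1 with DESeq2. In sorted early tumours it was 0 to 1 with single libraries left out and 2 without the 2 DP libraries with chromosome 15 gains, and in unsorted tumours 2 without the 5 with high NKT and NK markers. For RERT2 MYCChr6 against RERT2 D/AAA tumours it was 1 with no count filter and 0 to 2 with single libraries left out, and against MYCChr6 thymus 2 with no filter. The causes were not tested.

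Reversed log2 fold changes, none past the threshold, were at DN1 Ccr9 at 0.14 (DESeq2) and Ccr7 at 0.0031 (without the shallow library), at DN3 Ccr7 at -0.0019 and Itgb7 at 0.17 (first part of the run), and at DN4 Itgb7 at 0.012 (RLE) and 0.015 (DESeq2) and S1pr1 at -0.027 (1 fit of the run). Without the 5 unsorted tumours Itgb7 was -1.302 and Foxo1 -1.23. For LCK genotype Ccr9 was 0.095 without replicate 9. With single libraries left out the ranges that crossed 0 were, at DN3, Klf2 -0.24 to 0.38, Ccr7 -0.12 to 0.22, Itgb7 -0.78 to 0.17, Ms4a4b -0.10 to 0.45, Itm2a -0.012 to 0.27 and Ccr9 -0.42 to 0.021. In sorted early tumours they were Klf2 -0.58 to 0.18, Ccr7 -0.16 to 0.030 and Itm2a -0.15 to 0.71. For MYCChr6 against other RERT2 tumours they were Ccr9 -2.49 to 0.25, Foxo1 -0.56 to 0.39 and Itgb7 -0.19 to 1.21, and against thymus Itgb7 -1.15 to 0.22, Foxo1 -0.73 to 0.26 and S1pr1 -0.97 to 0.50. For LCK against RERT2 MYCChr6 tumours they were S1pr1 -0.26 to 1.19, Foxo1 -0.053 to 0.91 and Ccr9 -0.81 to 1.98, for LCK genotype Ccr9 -0.39 to 0.34 and Foxo1 -0.49 to 0.59, and for the MYCChr6 interaction Itm2a -1.45 to 0.92, Ccr9 -2.37 to 0.46 and Itgb7 -0.11 to 1.27.

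Counts over all genes also moved by more than 1.5 times, and some of these moves are given here. With DESeq2 genotype gave 8 at DN1, 13 at DN3, 26 at DN4 and 68 at DP, against 0, 0, 1 and 1 with edgeR. In 1 fit of the run genotype at DP gave 118 and sorted early tumours gave 1495. Sorted early tumours gave 855 with DESeq2, 1723 without the 2 DP libraries with chromosome 15 gains and 0 to 1549 with single libraries left out, against 0. Unsorted early tumours gave 1357 without the 5 with high NKT and NK markers, 5531 with no count filter and 7094 in 1 fit of the run, against 3468. RERT2 MYCChr6 tumours gave 1265 against the other RERT2 tumours. This became 669 without replicate 3, 1979 with no count filter and 2021 in 1 fit of the run. Against thymus the MYCChr6 tumours gave 1 to 179 with single libraries left out, against 241. With 3 libraries in those groups, and S1pr1 near 0 counts at DN3 and DP, precision was limited.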

Other observations

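Thymus of MYCChr6 mice belonged to no comparison of genotype, since 1 group held 2 libraries. Ccr9 was 421, 389 and 345 CPM in the 3 D/AAA MYCChr6 thymi and 646 and 539 CPM in the 2 +/D MYCChr6 thymi, so that each D/AAA thymus lay below each +/D one. Itgb7 was 78.7, 86.3 and 35.7 CPM in D/AAA MYCChr6 and 26.8 and 26.0 CPM in +/D MYCChr6 thymi, with each D/AAA thymus above each +/D one. Ms4a4b was 43.6, 63.5 and 43.1 CPM in D/AAA MYCChr6 and 26.8 and 30.0 CPM in +/D MYCChr6 thymi, in the same order as Itgb7. S1pr1 was 17.97, 39.6 and 27.9 CPM in D/AAA MYCChr6 and 35.4 and 22.8 CPM in +/D MYCChr6 thymi, and Ccr7 was 76.3, 97.3 and 54.6 CPM in D/AAA MYCChr6 and 61.7 and 34.0 CPM in +/D MYCChr6 thymi. These differences were not tested.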
